A study of Mus musculus with 6 samples.

Results

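The 33 genes described here act in meiosis and were taken by gene name from the deposited table: Stra8 and its partners of meiotic entry, cohesin subunits, proteins of the chromosome axis and synaptonemal complex, and enzymes of recombination and telomere attachment. All 33 were found among 42747 rows, and all 33 passed edgeR's filter on low counts, which left 18383 genes to test. RNA was measured in whole testes of mouse embryos at E16.5 (embryonic day), in 3 libraries labelled cKO and 3 labelled WT, with no treatment named. The series title names CK1α, the kinase encoded by Csnk1a1, in Sertoli cells, and cKO is read here as a conditional knockout of that gene. The Cre driver, the deleted exons, the strain background and the genotype of the WT mice are not named in the labels used here. The question was whether transcripts of the meiotic programme differ in the testis when the deletion is aimed at Sertoli cells, the somatic cells that enclose the germ cells.

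Meiosis is the pair of divisions that makes haploid gametes, and in mice its start differs by sex. Retinoic acid induces Stra8 in germ cells of the fetal ovary, and STRA8 together with MEIOSIN switches on many genes of the chromosome axis and of recombination. In the fetal testis the enzyme CYP26B1 degrades retinoic acid, male germ cells arrest as prospermatogonia, and meiosis starts only after birth. Many later meiotic genes are nevertheless transcribed at a low level in fetal male germ cells.

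The promoters of Stra8, of the axis gene Sycp3 and of the cohesin gene Rec8 are printed because Stra8 is known as a retinoic acid target and because Sycp3 and Rec8, as background, act after meiotic entry. Each run is the 250 bases before the annotated start, from RefSeq in GRCm38.p6, 5′ to 3′ on the gene's strand: chr6:34920698-34920947, chr10:88459337-88459586 and chr14:55617916-55618165, all on the plus strand. Capitals mark matches, on either strand, to AGGTCA (the half-site of retinoic acid receptors), CACGTG (an E-box), GCGGGAA (an E2F core) and a motif ascribed to STRA8 that reads C, any base, then CCTCAG. These motifs and promoters were chosen after the fold changes were known.
Stra8: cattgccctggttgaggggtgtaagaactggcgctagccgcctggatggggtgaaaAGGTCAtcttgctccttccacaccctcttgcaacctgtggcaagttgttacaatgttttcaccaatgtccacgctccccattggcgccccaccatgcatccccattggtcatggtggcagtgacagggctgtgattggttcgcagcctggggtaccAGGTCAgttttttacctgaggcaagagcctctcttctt
Sycp3: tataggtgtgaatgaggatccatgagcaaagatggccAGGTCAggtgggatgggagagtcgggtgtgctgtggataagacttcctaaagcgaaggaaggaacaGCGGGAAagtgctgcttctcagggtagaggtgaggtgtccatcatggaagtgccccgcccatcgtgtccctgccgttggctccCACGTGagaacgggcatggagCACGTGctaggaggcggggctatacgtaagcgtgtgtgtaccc
Rec8: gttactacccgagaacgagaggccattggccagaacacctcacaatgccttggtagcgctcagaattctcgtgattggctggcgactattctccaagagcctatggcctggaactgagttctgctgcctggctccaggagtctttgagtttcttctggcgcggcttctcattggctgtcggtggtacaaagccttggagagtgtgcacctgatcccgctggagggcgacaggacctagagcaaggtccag
The Stra8 window held AGGTCA 2 times, at 194 to 189 and at 38 to 33 bases before the start. The Sycp3 window held 1 AGGTCA, 2 CACGTG and 1 GCGGGAA, and the Rec8 window held 0 matches. Of the 27 meiosis genes with a window in the RefSeq table, 6 held AGGTCA, against 14.0% of 32851 windows of all genes. CACGTG was found in 6 of the 27 (6.02% of all windows), GCGGGAA in 8 (3.82%) and the STRA8 motif in 4 (6.42%). The 27 genes have 31 windows, and a gene was counted if any of its windows matched. The shares of all windows count single windows, so the units differ and no excess is read from them. These are matches of letters and not sites of binding.

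Counts per library summed to between 15092619 and 17431546, and the 33 genes held 0.0506 to 0.0993% of them. The Csnk1a1 count spans the whole gene in a whole organ (377 to 405 CPM in cKO, 348 to 396 CPM in WT) and does not check the labels. CPM stands for counts scaled to a common TMM-adjusted library total. Germ cell markers (19 of 20 matched, none at 0 in all libraries) summed to 987, 1814 and 1351 CPM in cKO libraries 1, 2 and 3 and to 2118, 1458 and 1754 CPM in WT libraries 1, 2 and 3. The groups overlapped, with cKO library 1 lowest and WT library 1 highest, and 1 of 18 tested markers, Mov10l1, was called lower (edgeR adjusted p = 0.0434; 0.0507 to 0.221, so no call, with cKO library 2, cKO library 3, WT library 1 or WT library 3 left out). Sertoli cell markers summed to 1841 to 2284 CPM in cKO against 3897 to 5104 CPM in WT, with 14 of 18 called lower (0 higher). Pregranulosa markers, from the somatic cells that surround oocytes in the ovary, summed to 332 to 398 CPM in cKO and 126 to 158 CPM in WT (4 of 9 called higher). Wnt4 alone held 221 to 251 CPM of the cKO sums and 57.5 to 86.2 CPM of the WT sums. Fold changes were positive for 8 of the 9, with Rspo1 at 0.05 on the log2 scale, and negative for Lgr5 (-0.04). Leydig (5005 to 6844 against 3794 to 4497 CPM) and mesonephros (43.1 to 62.9 against 27.2 to 34.9 CPM) sums were higher in each cKO library. Of these markers, 0 of 6 Leydig and 1 of 5 mesonephros genes were called, the latter higher. Endothelial (487 to 602 against 457 to 535 CPM), macrophage (46.1 to 56.9 against 41.9 to 59.8 CPM) and interstitial sums (12094 to 20368 against 8285 to 13529 CPM) overlapped. Among them 1 of 6 endothelial genes was called higher, and 0 of 5 macrophage and 0 of 7 interstitial genes were called. All 7 interstitial genes had a positive fold change with an edgeR p under 0.05 before adjustment. Over all tested genes 1.50% were called higher and 1.84% lower. The part of these markers in the results below was not tested. In a whole organ, fewer cells of a type and less RNA per cell cannot be told apart.

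Of the 33 meiosis genes, 0 were called higher and 1 lower in cKO by edgeR's quasi-likelihood test at a Benjamini-Hochberg adjusted p under 0.05, and 32 were not called. Over all tested genes 1.50% were called higher and 1.84% lower (3.35% in either direction), so the share called among the meiosis genes was near the background. Without adjustment, p was under 0.05 for 2 with a positive fold change (Stra8 and Rec8) and 3 with a negative one (Tex15, Meiob and Rnf212), against 15.8% of all tested genes in either direction. Fold changes were positive for 15 and negative for 18, with a median of -0.16 on the log2 scale against 0.00 over all tested genes. The groups did not overlap for 4 of the 33, and cKO was the lower group in each (Tex15, Meiob, Mei4 and Psmc3ip). Over all tested genes 10.7% lay apart and higher and 10.9% apart and lower.

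**Figure D1:**
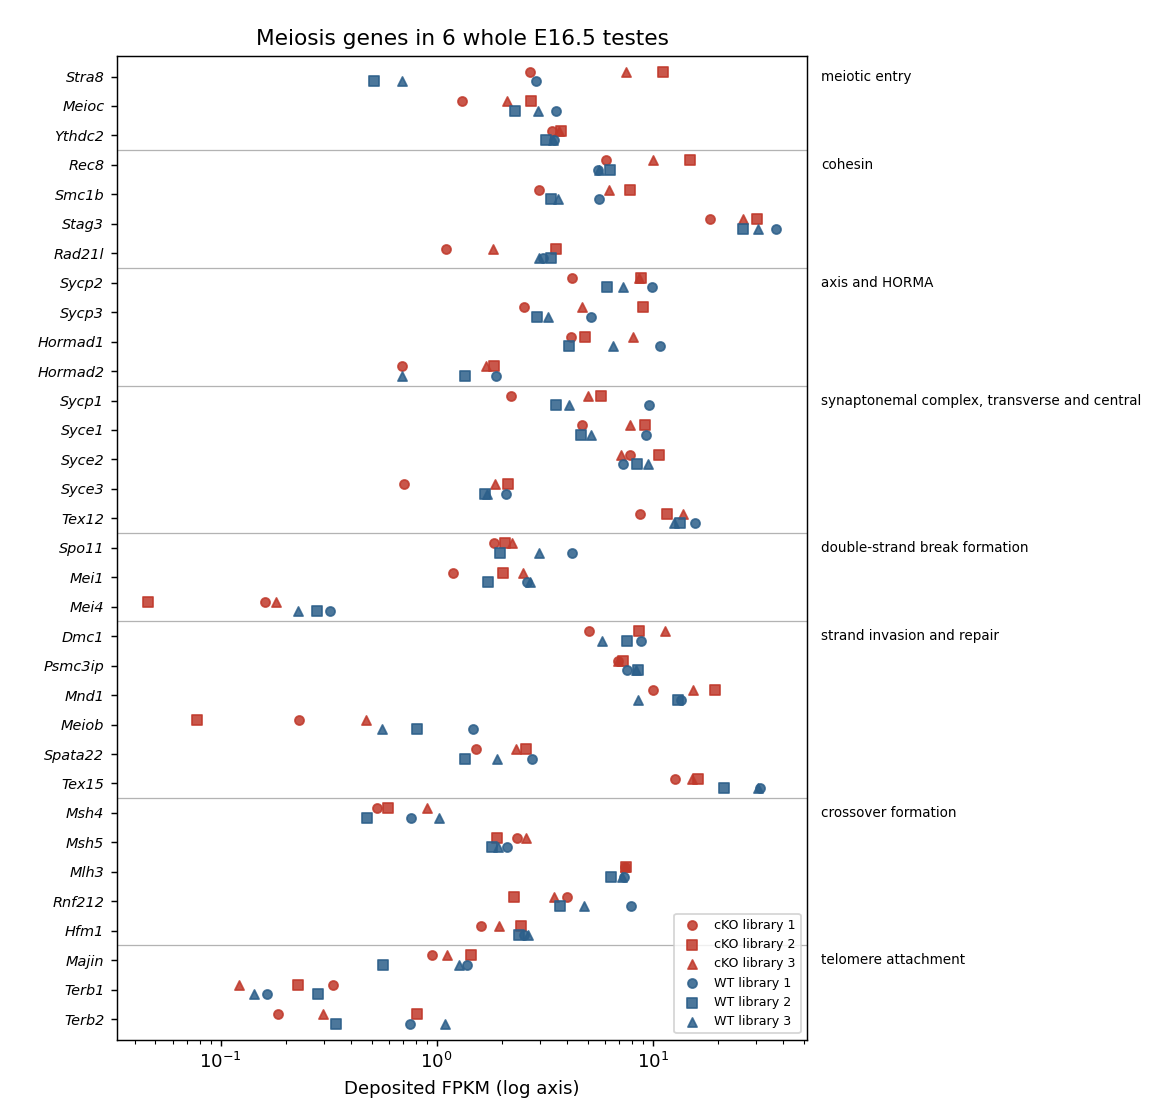
Deposited FPKM (log axis) of each of the 33 meiosis genes, ordered by role, with 1 point per library (red cKO, blue WT; the shape gives the library number). For Stra8, cKO libraries 2 and 3 lie to the right of the WT points while cKO library 1 lies beside WT library 1; Tex15 shows the groups apart.

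Stra8, the gatekeeper of meiotic entry, stood at 4.94, 20.1 and 13.6 CPM in cKO libraries 1, 2 and 3 and at 5.29, 0.931 and 1.26 CPM in WT libraries 1, 2 and 3. The cKO libraries 2 and 3 were high and WT libraries 2 and 3 low, while cKO library 1 lay just below WT library 1, so the groups overlapped. The means were 12.9 ± 7.63 CPM in cKO and 2.49 ± 2.43 CPM in WT (SD, n = 3 each), and the fitted difference was 5.15-fold. Its log2 fold change of 2.37 (SE 0.623, 95% confidence interval 0.99 to 3.74) did not pass the threshold (edgeR adjusted p = 0.0721). Leaving out cKO library 1 brought a call at 2.75 (edgeR adjusted p = 0.0131), as did leaving out WT library 1 at 3.55 (edgeR adjusted p = 0.0167). Without the low-count filter edgeR gave an adjusted p of 2.58e-13. That fit also lowered adjusted p steeply for other genes at almost the same fold change. Amh, at -2.41 in both fits, went from an edgeR adjusted p of 0.00382 to 5.61e-52. The small value for Stra8 is thus no sign of close agreement between its libraries. The other 13 of 16 alternatives gave no call. Per length, Stra8 averaged 7.10 FPKM in cKO and 1.36 FPKM in WT, and its FPKM level ranked 11 of the 33 in cKO and 26 in WT. By library, the rank was 16, 6 and 10 in cKO and 21, 29 and 30 in WT. The gene lies on chromosome 6, 33849835 to 33885598, plus strand (C57BL/6NJ coordinates as in the tables), and no other annotated gene overlaps it.

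Relative to the germ cell markers, the Stra8 groups did not overlap. On this scale 13.9% of all tested genes lay apart and higher in cKO. The marker sum itself had a mean log2 difference of -0.39 between cKO and WT. It was lowest in cKO library 1 and highest in WT library 1, the 2 libraries whose Stra8 CPM were close. Of the 18 tested markers, 14 had negative and 4 positive log2 fold changes, from -0.79 (Mov10l1) to 0.99 (Dppa3). The scale therefore depends on which genes are summed. Per 1000 CPM of summed germ cell markers, Stra8 held 5.01, 11.1 and 10.1 CPM in cKO libraries 1, 2 and 3 and 2.50, 0.639 and 0.716 CPM in WT libraries 1, 2 and 3. The lowest cKO value was above the highest WT value, and the mean difference was 2.98 on the log2 scale (7.89-fold). This is a difference between means of log2 ratios, while the 5.15-fold above is the fitted edgeR value. The distance between them is therefore not the effect of the scaling alone. An exact two-sided permutation test over the 6 libraries gave p = 0.1, the smallest that 3 against 3 allows, so this design cannot reach the threshold. With the germ cell helicase gene Ddx4 alone as denominator the difference was 2.80.

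The other 2 genes of meiotic entry were not called. Meioc, whose protein works with YTHDC2 to let germ cells leave the mitotic programme, stood at 6.12, 12.8 and 9.89 CPM in cKO and 16.7, 10.7 and 13.7 CPM in WT (log2 fold change -0.51, edgeR adjusted p = 0.409). Its groups overlapped. Ythdc2, an RNA helicase gene, stood at 30.7, 33.6 and 32.9 CPM in cKO and 31.6, 28.5 and 30.9 CPM in WT (0.10, 95% confidence interval -0.19 to 0.38, edgeR adjusted p = 0.782). Its 6 values were close together.

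Set against the other 32 genes one by one, the ratio of Stra8 to each was higher in cKO on average for 32 of 32. These ratios share Stra8 and were added after the data were seen, so they are 1 measurement repeated and not 32. The mean log2 difference of the ratio ran from 1.87 (against Rec8) to 4.70 (against Meiob), with a median of 2.78. The 3 cKO ratios lay apart from the 3 WT ratios for 26 of the 32, against 39.7% of 18124 other tested genes, and overlapped for Ythdc2, Rec8, Syce2, Msh5, Mlh3 and Terb1. No exact two-sided permutation p was below 0.1 (0.123 after Benjamini-Hochberg adjustment over the 32). The 95% interval of Stra8 lay above the whole interval of 26 genes, and overlapped those of Rec8, Smc1b, Sycp3, Hormad2, Majin and Terb1.

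**Figure D2:**
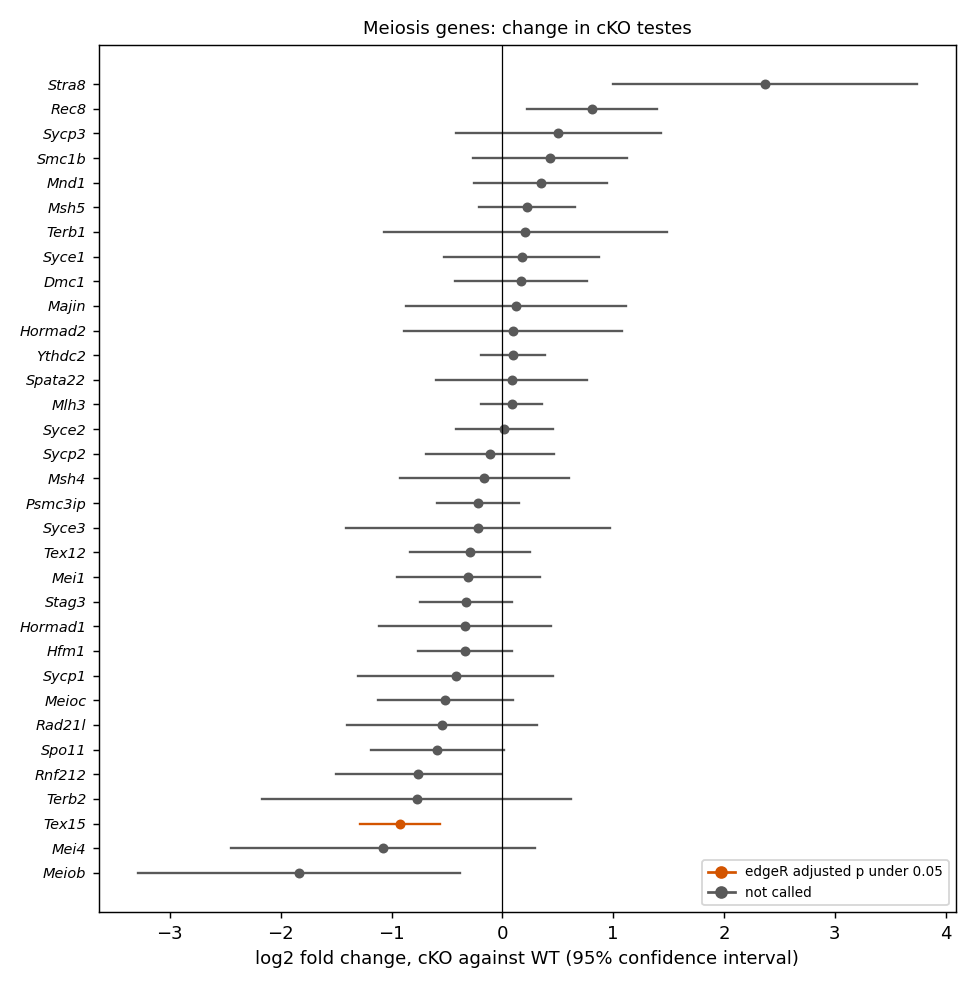
Log2 fold change of cKO against WT for the 33 meiosis genes, sorted by size, as points with 95% confidence intervals from the edgeR fit. Stra8 at 2.37 is the highest point and Meiob at -1.84 the lowest, and Tex15 at -0.93 is the only gene called.

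Cohesins hold sister chromatids together, and meiosis uses its own subunits. Rec8, which encodes the meiotic kleisin and is known to be induced by retinoic acid in fetal germ cells also without Stra8, stood at 16.9, 41.2 and 27.7 CPM in cKO and at 15.6, 17.6 and 15.7 CPM in WT. The WT libraries lay close together, cKO libraries 2 and 3 lay above them, and cKO library 1 lay within their range, so the groups overlapped. The means were 28.6 ± 12.2 and 16.3 ± 1.11 CPM (SD, n = 3 each), and the log2 fold change of 0.81 (SE 0.266, 95% confidence interval 0.23 to 1.40) was not called (edgeR adjusted p = 0.151). It was called by DESeq2 (adjusted p = 0.0487) and without cKO library 1 (1.08, edgeR adjusted p = 0.00843). Rec8 was also called without the low-count filter (edgeR adjusted p = 0.00111), the fit that lowered adjusted p for other genes too. With 1 library left out its log2 fold change ran from 0.46 to 1.08. The gene lies on chromosome 14, 52149395 to 52156702, plus strand, in the files' coordinates. Stag3, a stromal antigen subunit and the most abundant of the 4 cohesin genes per length, stood at 106, 176 and 152 CPM in cKO and 217, 150 and 178 CPM in WT (-0.33, edgeR adjusted p = 0.441). Its groups overlapped. Smc1b (0.43) and Rad21l (-0.54), the remaining subunits, had edgeR adjusted p of 0.56 and 0.551.

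Axis and HORMA-domain genes showed no call among 4. Sycp3, which encodes the main filament protein of the axis, stood at 3.23, 11.5 and 5.98 CPM in cKO and 6.66, 3.73 and 4.19 CPM in WT (log2 fold change 0.50, edgeR adjusted p = 0.619). The value of cKO library 2 alone lay above all WT values, and without that library the log2 fold change was -0.07. Sycp2, its binding partner in the axis, stood at 25.4, 53.1 and 51.9 CPM in cKO and 60.1, 37.0 and 43.9 CPM in WT (-0.11, edgeR adjusted p = 0.88). Hormad1, a checkpoint protein of unsynapsed axes, stood at 6.78, 7.85 and 13.1 CPM in cKO and 17.7, 6.65 and 10.6 CPM in WT (-0.33, edgeR adjusted p = 0.706). Both overlapped between groups, with WT library 1 the highest, and without WT library 1 their log2 fold changes were 0.10 each. Sycp2 also turned to 0.16 without cKO library 1, its lowest. Hormad2 had a log2 fold change of 0.10 (edgeR adjusted p = 0.939).

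Transverse and central elements of the synaptonemal complex zip paired chromosomes together, and 0 of 5 genes were called. Sycp1, the transverse filament, stood at 7.64, 19.9 and 17.4 CPM in cKO and 33.5, 12.3 and 14.2 CPM in WT (log2 fold change -0.42, edgeR adjusted p = 0.67). WT library 1 was far above the others, and without it the value was 0.17. Tex12, a central element gene and the most abundant of the 5 per length, stood at 5.14, 6.85 and 8.11 CPM in cKO and 9.33, 7.92 and 7.42 CPM in WT (-0.29, edgeR adjusted p = 0.619). Syce2, its partner, stood at 15.6, 21.1 and 14.1 CPM in cKO and 14.6, 16.7 and 18.9 CPM in WT (0.02, edgeR adjusted p = 0.974). Groups overlapped for both. Syce1 (0.17) and Syce3 (-0.22) were not called. The row of Syce2 overlaps Gcdh on the other strand and that of Sycp3 overlaps Chpt1. In all, 14 of the 33 genes overlap another annotated gene, and with no strand setting given such reads cannot be told apart.

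Genes for double-strand breaks, which start recombination, had negative fold changes in 3 of 3, and 0 were called. Spo11, the enzyme that cuts, stood at 7.31, 8.18 and 8.80 CPM in cKO and 16.9, 7.78 and 11.8 CPM in WT (log2 fold change -0.59, edgeR adjusted p = 0.331). The cKO values lay close together, and WT library 2 lay among them. Mei1, an accessory factor, stood at 5.07, 8.58 and 10.6 CPM in cKO and 11.2, 7.32 and 11.5 CPM in WT (-0.31, edgeR adjusted p = 0.673). Mei4, another accessory factor, had 7, 2 and 9 counts in cKO and 15, 12 and 11 in WT (-1.07, edgeR adjusted p = 0.449), with a wide 95% confidence interval of -2.45 to 0.30. Its groups did not overlap, and those of Mei1 did.

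Strand invasion and repair held the only called meiosis gene. Tex15, required for recombination foci and for silencing of transposons in fetal male germ cells, stood at 123, 156 and 147 CPM in cKO libraries 1, 2 and 3 and at 305, 207 and 300 CPM in WT libraries 1, 2 and 3. The highest cKO value was below the lowest WT value. The gene was 1.90-fold lower in cKO, at 142 ± 17.1 CPM against 270 ± 55.3 CPM (SD, n = 3 each; log2 fold change -0.93, SE 0.164, 95% confidence interval -1.29 to -0.57, edgeR adjusted p = 0.00985). Its call was lost when cKO library 3 (edgeR adjusted p = 0.059), WT library 1 (0.0572) or WT library 3 (0.0631) was left out, and held in the other 13 of 16 alternatives. It lies on chromosome 8, 33200962 to 33275483, plus strand, in the files' coordinates, where no other gene overlaps it. Per length, Tex15 averaged 14.7 FPKM in cKO and 27.8 FPKM in WT, and its FPKM level ranked 3 of the 33 in cKO and 2 in WT.

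Meiob, a single-strand binding protein gene of the same group, had 6, 2 and 14 counts in cKO and 41, 21 and 16 in WT (log2 fold change -1.84, 95% confidence interval -3.29 to -0.39, edgeR adjusted p = 0.195). Its groups did not overlap, and it was not called. Mnd1, whose protein helps the recombinase DMC1, stood at 8.89, 17.2 and 13.5 CPM in cKO and 12.1, 11.6 and 7.54 CPM in WT (0.34, edgeR adjusted p = 0.594). Psmc3ip, the partner of Mnd1, lay apart and lower in cKO at 12.6 to 13.4 CPM against 14.1 to 15.6 CPM, a small difference that was not called (-0.22, edgeR adjusted p = 0.582). Its row overlaps Mlx on the other strand. Dmc1 (0.17) and Spata22 (0.08) were not called.

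Crossover and telomere genes held no call either. Rnf212, a regulator of crossover designation, stood at 5.27, 2.99 and 4.60 CPM in cKO and 10.5, 4.92 and 6.34 CPM in WT (log2 fold change -0.76, edgeR adjusted p = 0.306). Hfm1, a helicase gene, had 164, 248 and 226 counts in cKO and 276, 242 and 296 in WT (-0.34, edgeR adjusted p = 0.436). The groups overlapped for both, and the Rnf212 row overlaps an antisense gene. Mlh3, a mismatch repair gene of crossovers, stood at 40.8, 41.0 and 40.7 CPM in cKO and 40.8, 35.2 and 39.5 CPM in WT (0.08, 95% confidence interval -0.19 to 0.36). Msh5 (0.22) and Msh4 (-0.16) were not called. The genes that tie telomeres to the nuclear envelope were rare: Majin had 24, 36 and 32 counts in cKO and 37, 14 and 35 in WT (0.12). Terb1 had 19, 13 and 8 against 10, 16 and 9 counts (0.21), and Terb2 had 6, 26 and 11 against 26, 11 and 39 counts (-0.77, edgeR adjusted p = 0.611). Their groups overlapped, and 5 of the 33 genes averaged under 20 counts per library.

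The libraries ranked alike across many of the genes. The cKO library 1 was the lowest of its group for 25 of the 33 and cKO library 2 the highest for 22, while WT library 1 was the highest of its group for 24 and WT library 2 the lowest for 22. The sum of germ cell markers had the same order of libraries within each group. No such counts over all tested genes are given beside these, so the order is not read as particular to the meiosis genes.

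Scaled to the germ cell markers, 8 of the 33 genes lay apart and higher in cKO (Stra8, Rec8, Smc1b, Sycp3, Syce1, Mnd1, Spata22 and Majin) and 2 lay apart and lower (Meioc and Tex15). Meioc did so by a narrow margin. Per 1000 CPM of germ cell markers it held 6.21, 7.04 and 7.32 CPM in cKO and 7.87, 7.35 and 7.81 CPM in WT (log2 difference -0.17). This scale was applied to all genes after the data were seen, and on it 13.9% of all tested genes lay apart and higher and 1.76% apart and lower. Rec8 held 17.1, 22.7 and 20.5 CPM in cKO and 7.37, 12.0 and 8.93 CPM in WT per 1000 CPM of germ cell markers, a log2 difference of 1.11. Tex15 held 125, 86.0 and 109 CPM in cKO and 144, 142 and 171 CPM in WT on this scale, a log2 difference of -0.53. For the 32 genes other than Stra8 the median log2 difference was 0.20, below the 0.38 of all tested genes on the same scale. Apart from the permutation test of Stra8 given above, no test was made of these values.

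**Figure D3:**
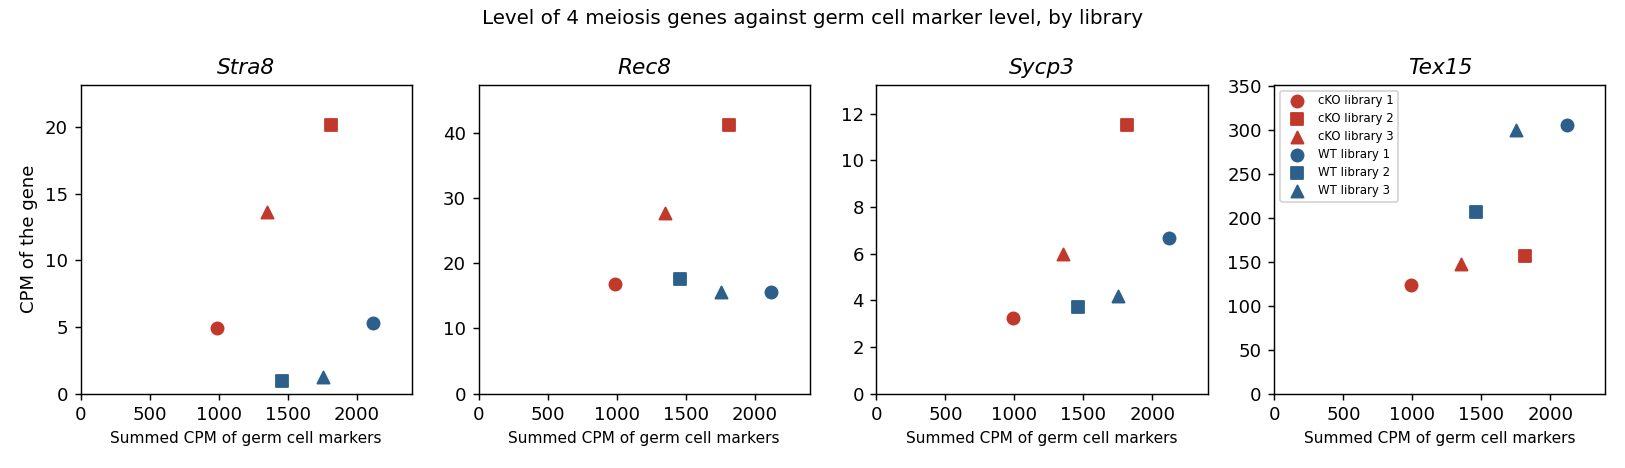
CPM of Stra8, Rec8, Sycp3 and Tex15 (vertical axes, each from 0) against the summed CPM of germ cell markers (horizontal axis), with 1 point per library (red cKO, blue WT). In the Stra8 panel cKO library 1 and WT library 1 lie at 4.94 and 5.29 CPM, at the lowest (987 CPM) and the highest (2118 CPM) marker sum.

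A further list of meiosis genes, chosen with the earlier results known, gave 0 called of 28 tested (29 matched), with 1 positive and 1 negative fold change at p under 0.05 before adjustment (Rec114 and Fignl1). Rec114, a factor of break formation, stood at 4.54, 9.57 and 6.33 CPM in cKO and 4.42, 4.46 and 3.89 CPM in WT (log2 fold change 0.68, edgeR adjusted p = 0.314). Fignl1, a regulator of strand exchange, had -0.36 (edgeR adjusted p = 0.239). Kash5, which links telomeres to the cytoskeleton, had 0.90 and Brca2, a loader of recombinases, -0.29 (edgeR adjusted p = 0.323 and 0.341). The partner of STRA8, Meiosin, listed as Gm4969, is outside the naming rule and had -0.08 (edgeR adjusted p = 0.91).

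Of 27 tested genes that regulate Stra8 or meiotic entry, 2 were called higher and 2 lower; before adjustment p was under 0.05 for 6 in each direction. Over all tested genes 1.50% were called higher, 1.84% were called lower and 15.8% had an unadjusted p under 0.05. The list was chosen with earlier results of these data known, so no excess over these shares is read from it. Aldh1a3, an enzyme that makes retinoic acid, rose from 11.1, 9.98 and 6.16 CPM in WT to 24.0, 19.3 and 18.6 CPM in cKO (log2 fold change 1.18, edgeR adjusted p = 0.0182). Each cKO value was above each WT value. Dmrt1, a transcription factor of Sertoli and germ cells that restrains Stra8 in the male, fell from 50.5, 52.3 and 45.2 CPM in WT to 23.1, 37.8 and 22.2 CPM in cKO (-0.83, edgeR adjusted p = 0.0445). E2f6, part of a complex that silences germline genes, fell from 115, 114 and 117 CPM to 83.0, 89.8 and 74.6 CPM (-0.48, edgeR adjusted p = 0.0445). The groups were apart for both. The calls depended on the libraries and on the test. None of the list was called when cKO library 3 or WT library 3 was left out, and 1 was higher and 0 lower when WT library 1 or WT library 2 was. Without cKO library 1 there were 2 higher and 0 lower, and without cKO library 2 there were 3 and 3. Limma-trend on log2(FPKM + 0.1) gave Aldh1a3, Dmrt1 and E2f6 adjusted p of 0.0658, 0.0890 and 0.0701, so none of these 3 was called.

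Genes of the retinoic acid pathway outside the naming rule were looked up after their values were seen. Cyp26b1, the enzyme that clears retinoic acid in the fetal testis, stood at 17.8, 35.2 and 20.8 CPM in cKO and 37.5, 61.8 and 41.7 CPM in WT (log2 fold change -0.93, edgeR adjusted p = 0.0864). The groups were apart and lower in cKO, and the gene was not called. Cyp26a1, a related enzyme induced by retinoic acid, had 1.85 and Rarb, a receptor induced by it, 0.93 (edgeR adjusted p = 0.115 and 0.109). Neither was called, and Cyp26a1 rests on few counts, 27, 17 and 21 in cKO and 7, 3 and 8 in WT. The other retinoic acid receptor genes had 0.45 (Rarg, edgeR adjusted p = 0.0958) and -0.27 (Rara, edgeR adjusted p = 0.284), and the genes of the cellular binding proteins had -0.03 (Crabp1) and -0.12 (Crabp2). Of the enzymes that make retinoic acid, Aldh1a1, the most abundant of the list per length, had -0.59 (edgeR adjusted p = 0.11) and Aldh1a2 0.00 (edgeR adjusted p = 0.994). Nanos2, a repressor of Stra8 in male germ cells, had too few counts to test, with 0, 16 and 1 in cKO and 9, 1 and 0 in WT. The fall of the Sertoli cell marker sum lies beside these values, and its part in them was not tested.

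**Figure D4:**
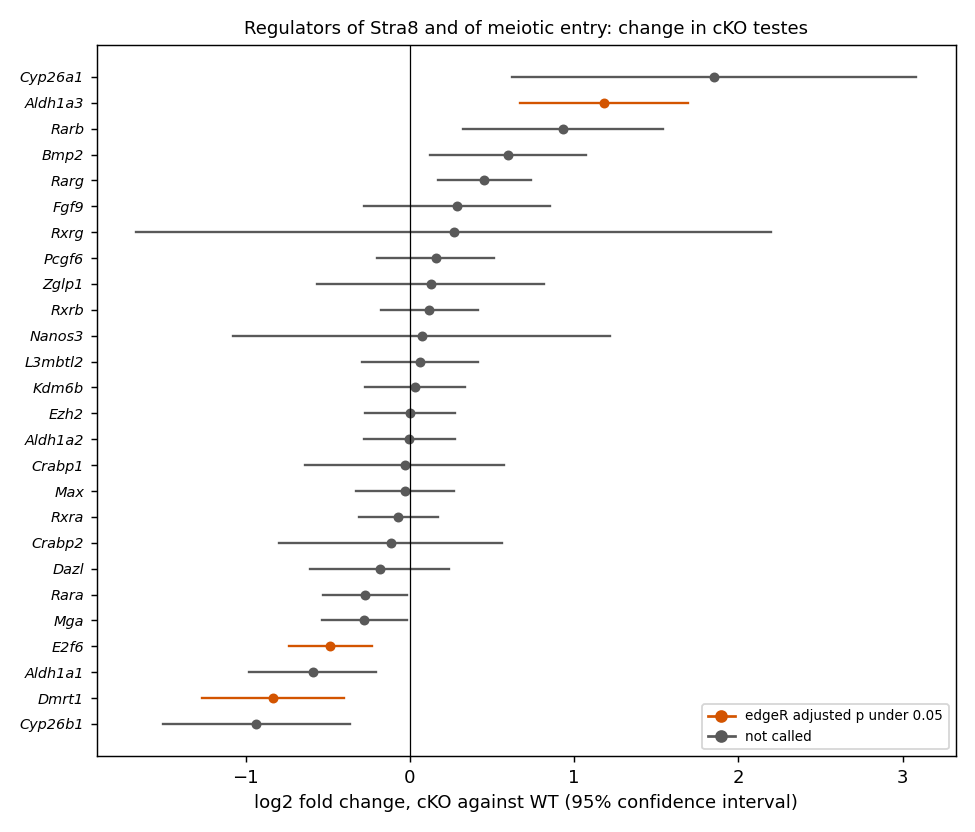
Log2 fold change of cKO against WT with 95% confidence intervals from the edgeR fit for 26 of the 27 tested regulators of Stra8 and meiotic entry, sorted by size; orange marks called genes. Among the genes drawn, Aldh1a3 (1.18) is called higher and E2f6 (-0.48) and Dmrt1 (-0.83) lower.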

How the data were processed

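The authors deposited raw counts, 1 whole number per gene and library. A second table of theirs holds FPKM per library, per the file headers. The submitters' processing notes name HISAT2 2.0.5 and GRCm38, while no source used here gives the counting tool or its strand setting. The tables carry C57BL/6NJ identifiers in 41096 of 42747 rows, so their coordinates were not mixed with GRCm38. The FPKM denominator was 0.968 to 1.05 times the count total, so a scaling factor was already included.

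The members and lists were chosen with earlier results of these data known. Counts were fitted in R 4.3.3 with edgeR 4.0.16 (TMM, filterByExpr, quasi-likelihood test, no covariate), with Benjamini-Hochberg adjustment over 18383 genes and a threshold of 0.05. Standard errors are the absolute log2 fold change divided by the square root of F. The procedure was tested on simulated data. The sample titles give a group and a replicate number, and each library was treated as 1 independent replicate. No 2 libraries of a group matched within sampling noise. The naming rule took every-library values for Stra8, called genes and, per role, the 2 smallest p and the 2 highest FPKM, and of other lists up to 4 with the smallest p and, for cell types, the 2 most abundant; cell type lists are printed here mainly as sums and counts of calls, and 1 gene that the rule takes is not reported here. Alternatives used DESeq2 1.42.0 and limma 3.58.1. Of the members, 5 average under 20 counts, and their intervals are wide.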

Additional observations from a re-analysis of the deposited data

How the results depend on the processing

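The log2 fold change of Stra8 was positive in all 16 listed alternatives, from 1.76 to 3.55. With 1 library left out it ran from 1.90 to 3.55 (edgeR adjusted p from 0.0131 to 0.309) and its ratio to germ cell markers from 2.62 to 3.61; without the low-count filter it was 2.37 and called. Genes called higher among the 33 numbered 1 by DESeq2, 2 without the low-count filter and 0 to 2 with 1 library left out; those called lower numbered 0 to 1 with 1 library left out. Over all tested genes (276 higher and 339 lower), DESeq2 called 527 and 574, no low-count filter 613 and 651, limma-trend on log2(FPKM + 0.1) 149 and 223, and on log2(FPKM + 1) 156 higher; with 1 library left out the counts ran from 105 to 342 and from 167 to 399. The median of the 33 then ran from -0.26 to 0.10. Regulators of Stra8 called (2 higher and 2 lower) numbered 4 and 4 by DESeq2, 3 and 4 without the low-count filter, 1 and 0 by limma-trend with either pseudocount, and 2 and 3 with the replicate block, under which E2f6 lost its call (edgeR adjusted p = 0.0532). With 1 library left out the sign changed for Sycp2 from -0.28 to 0.16, Sycp3 from -0.071 to 0.84, Hormad1 from -0.67 to 0.10, Hormad2 from -0.21 to 0.46, Sycp1 from -0.67 to 0.17, Syce1 from -0.026 to 0.56, Syce2 from -0.17 to 0.14, Syce3 from -0.50 to 0.12, Dmc1 from -0.12 to 0.43, Spata22 from -0.12 to 0.39, Msh4 from -0.43 to 0.12, Majin from -0.17 to 0.35 and Terb1 from -0.17 to 0.56; Syce2 was -0.013 with library totals and -0.0043 with limma-voom. The cause was not tested.

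A further fit was chosen after seeing the data: it left out cKO library 1 and WT library 1 together, which hold the lowest and highest germ cell marker sums. The same libraries are the lowest cKO and the highest WT library for Stra8, so leaving them out raises its difference by construction, and the fit supports nothing here. It gave Stra8 3.93 (edgeR adjusted p = 0.00142), 2 genes higher and 0 lower among the 33 (Stra8 and Smc1b, the latter at an edgeR adjusted p of 0.0488; Tex15 lost its call at -0.74) and 101 genes higher in all. Signs changed for Sycp2 (0.37), Hormad1 (0.28), Sycp1 (0.49), Syce2 (-0.018), Syce3 (0.24), Mei1 (0.025) and Terb1 (-0.28), and no regulator was called.

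Whether replicate numbers pair the libraries could not be settled. Correlations of same-numbered deviations were 0.017, 0.184 and 0.032. The cKO libraries 2 and 3 correlated best with the WT library of the same number, and cKO library 1 with WT library 3, at 0.157. With 3 libraries per group these values cannot decide it. With the replicate block Stra8 was 2.50 (edgeR adjusted p = 0.108), 0 of the 33 were higher and 1 lower, and 324 and 372 genes were called in all. Depth limits the rarest genes: 5 of the 33 average under 20 counts.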
